A study of Homo sapiens with 12 samples.

Results

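Solute carriers are the largest family of membrane transporters in human cells, and the 195 genes described here are its expressed members in a fibroblast line. They were chosen by name and by read count: each is a protein-coding gene whose symbol reads SLC, a family number, A and a member number, and each had at least 20 counts in at least 3 of 12 RNA sequencing libraries. Of 48162 gene IDs in the count tables, 335 carried such a symbol, and 140 of these were under the count minimum, 41 of them with no count in any library. The 195 members came from 47 of 50 numbered families. They were grouped by what they carry into 27 amino acid, 12 glucose and other sugar, 23 metal, 6 nucleoside or nucleobase and 39 mitochondrial transporters, and the other 88 carry ions, organic anions and cations, phosphate, vitamins, lipids and other cargo. The choice rested on names and on a minimum over all libraries, not on differences between groups. It was made with earlier results of these data known, and 1 member, SLC16A12, reached the minimum through the control libraries alone. Just inside the minimum lay SLC25A21, with 21 counts in its third-highest library, and SLC22A31, with 23. Just outside lay SLC7A8 and SLC6A16, with 19 each.

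Carriers of this family move amino acids, sugars, metals, nucleosides, phosphate, lactate and ions across the plasma membrane, across the membranes of lysosomes and Golgi, and across the inner membrane of mitochondria. Most work as uniporters, which let a solute follow its gradient, as symporters, which draw a solute in along with sodium or protons, or as antiporters, which swap one solute for another. In fibroblasts they set the uptake of glucose and amino acids, the export of lactate, and the entry, storage and exit of iron and zinc.

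Messenger RNA was sequenced from IMR90, a normal diploid fibroblast line of human lung, in 4 groups with 3 libraries each. The question was how expression depends on DOT1L, the histone H3 lysine 79 methyltransferase, in cells made senescent by an oncogene. RAS cells were infected with a retroviral vector for mutant HRAS (pBABE-HRASG12V), which drives these fibroblasts into senescence. RAS/shDOT1L cells received the same vector together with 1 hairpin RNA against DOT1L in pLKO.1, and DOT1L OE cells received a vector for human wild-type DOT1L (MSCB-hDot1lwt). Control cells received pBABE-Control. The cells of each group grew in 2% oxygen and were selected for 4 days, DOT1L OE cells with blasticidin at 1 µg/mL and the other groups with puromycin at 3 µg/mL, so drug and vector cannot be told apart from DOT1L in that group. The labels of the RAS cells name no control hairpin. Figure legends of the study call the libraries technical replicates of 1 experiment while its methods speak of biological ones, so each p-value here measures the spread between libraries, which may be technical. The whole population was lysed, so fewer cells of a type and less RNA per cell cannot be told apart.

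Library totals lay between 16128055 and 19503457 counts. DOT1L stood at 10.98 ± 0.644 in RAS/shDOT1L, 84.4 ± 3.42 in RAS, 202 ± 9.19 in DOT1L OE and 31.7 ± 2.33 in control, in CPM, the read count scaled to library size (mean ± SD, n = 3 libraries). HRAS stood at 275 ± 13.002 CPM in RAS/shDOT1L, 503 ± 10.01 in RAS, 79.4 ± 5.46 in DOT1L OE and 85.9 ± 2.82 in control. HRAS was thus also lower in RAS/shDOT1L than in RAS, and the part of that difference in the results was not tested. All 9 fibroblast markers were at 31.4 CPM or more in every library. The 5 epithelial markers summed to at most 4.21 CPM and the 4 leukocyte markers to at most 0.782 CPM in any library, with SFTPC and CD68 at 0 counts in all 12. The 3 endothelial markers, led by KDR, summed to between 11.4 and 13.4 CPM in DOT1L OE libraries, against 0.402 to 0.671 CPM in control libraries, with CDH5 at 0 in both groups, and the part of this in the DOT1L OE results was not tested. Counts followed transcript GC content differently in RAS libraries than in the rest. A second fit that took out each library's GC trend (the GC-offset fit) is therefore given beside a member wherever it ended a call, turned its direction or moved its fold by over 1.5 times.

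Members were compared with the edgeR quasi-likelihood test fitted across all genes that passed its filter, and a member was called at a Benjamini-Hochberg adjusted p under 0.05. The ± after a log2 change is a standard error (SE), worked back from the log2 change and the F statistic of that test. In RAS against control, 77 of 195 members (39.5%) were higher and 52 (26.7%) lower, beside 31.9% higher and 32% lower among all genes tested. Their median log2 change was 0.08, beside -0.04 for all genes. Asked for a change of over 1.5-fold, the test called 39 members higher and 32 lower, where 13.4% and 13.6% of all genes passed. Scaling by library size alone moved the median of all genes to -0.24 and that of the members to -0.12. The members then split into 62 higher and 75 lower, so the excess of higher over lower calls in this comparison depended on the scaling. The members' median lay above that of all genes under each scaling. Shares of all genes called under library size alone are not given here.

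In RAS/shDOT1L against RAS, 35 of 190 members tested (18.4%) were higher and 71 (37.4%) lower, beside 26.3% and 26.4% of all genes. Over 1.5-fold, 12 were higher and 35 lower, against backgrounds of 8.34% and 8.62%. The median log2 change of the members was -0.15, beside 0.03 for all genes. In DOT1L OE against control, 71 of 194 (36.6%) were higher and 61 (31.4%) lower, with 29.9% of all genes called in each direction. Over 1.5-fold, 31 were higher and 27 lower, where 11.2% and 9.58% of all genes passed. In RAS/shDOT1L against control, 51 of 194 (26.3%) were higher and 70 (36.1%) lower, beside 27.9% and 27.6% of all genes, and over 1.5-fold 21 were higher and 31 lower, beside 9.44% and 9.68%. Library size alone moved the median of all genes in that last comparison to -0.13 from -0.01 and the members' split to 42 higher and 83 lower. The shares of all genes called under that scaling are not given here. The control libraries serve in 3 of these comparisons and the RAS libraries in 2, so the comparisons are not independent of each other.

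**Figure D1:**
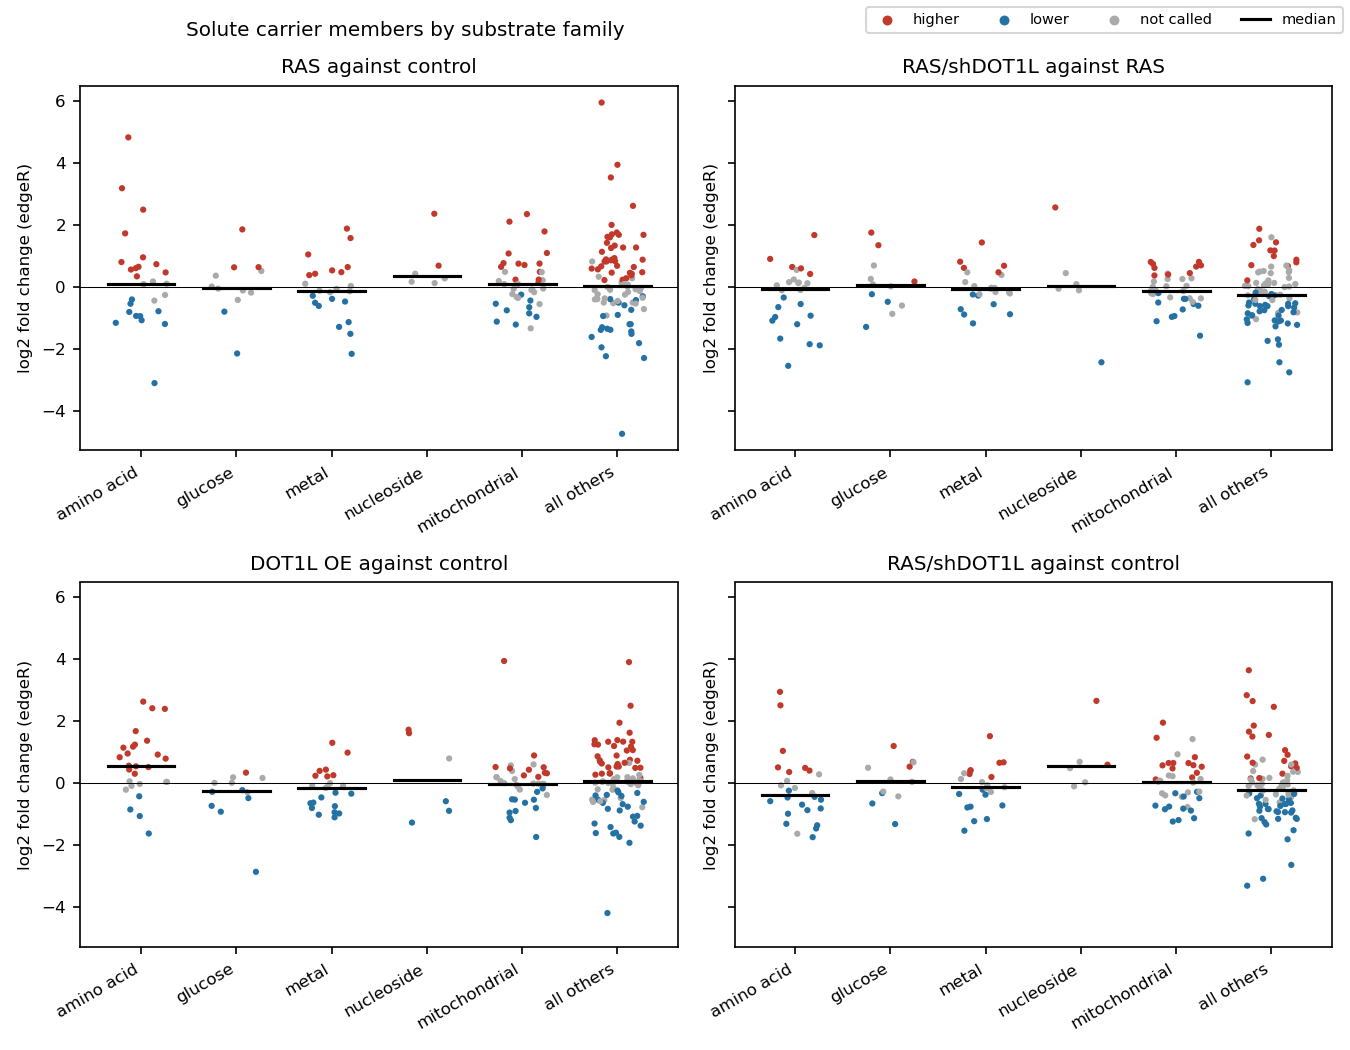
Log2 fold change (edgeR, vertical axis) of each member in 4 comparisons, by substrate family, with called members in red (higher) or blue (lower), others in grey and the family median as a black bar. Amino acid transporters sit highest in DOT1L OE against control, with a median of 0.54, while the medians of the other families there lie between -0.26 and 0.10 for the 4 named ones.

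Among the largest changes in RAS cells were those of carriers of monocarboxylates, phosphate and urea. SLC16A6 (ENSG00000108932; GRCh38 chr17:68267026-68291267, minus strand), which encodes monocarboxylate transporter MCT7, had 27.8, 25.5 and 21.4 CPM in RAS/shDOT1L and 206, 215 and 223 CPM in RAS. DOT1L OE libraries held 56.7, 51.6 and 48.6 CPM, and control libraries 3.302, 3.88 and 3.32 CPM. No library of any group overlapped those of another. SLC16A6 rose 61.3-fold in RAS against control (edgeR log2 change 5.94 ± 0.09, adjusted p = 8.52e-33), fell in RAS/shDOT1L against RAS (edgeR log2 change -3.09 ± 0.08, adjusted p = 1.87e-25), and rose in DOT1L OE against control (edgeR log2 change 3.904 ± 0.12, adjusted p = 6.95e-23). RAS/shDOT1L cells still held 7.13-fold more of it than control (edgeR log2 change 2.83 ± 0.18, adjusted p = 6.17e-14). SLC16A3 (ENSG00000141526), the lactate exporter MCT4, showed another order, with 253, 256 and 272 CPM in RAS/shDOT1L and 1409.8, 1439 and 1458 CPM in RAS. In DOT1L OE the values were 646, 734 and 689 CPM, against 604, 536 and 579.7 CPM in control. The 3 RAS/shDOT1L libraries were here the lowest of the 12. It rose in RAS against control (edgeR log2 change 1.32 ± 0.04, adjusted p = 2.37e-25) and fell in RAS/shDOT1L against RAS (edgeR log2 change -2.44 ± 0.04, adjusted p = 3.6e-30), to below control (edgeR log2 change -1.13 ± 0.05, adjusted p = 1.97e-17). Its rise in DOT1L OE against control was smaller (edgeR log2 change 0.27 ± 0.05, adjusted p = 7.46e-06).

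Other members of the lactate and pyruvate carriers did not move as one. SLC16A1, which encodes MCT1, had 71.7, 63.9 and 78.1 CPM in RAS, against 40.3, 36.3 and 44.1 CPM in control, and it rose (edgeR log2 change 0.82 ± 0.09, adjusted p = 9.19e-10). It fell in RAS/shDOT1L against RAS (edgeR log2 change -1.703 ± 0.10, adjusted p = 1.34e-15), again to the lowest level of the 4 groups, 21.6 ± 0.936 CPM. BSG (basigin), the chaperone that brings MCT1 and MCT4 to the cell surface, averaged 431 ± 6.91 CPM in RAS/shDOT1L, 596 ± 12.5 in RAS, 253 ± 15.6 in DOT1L OE and 329 ± 7.08 in control. Of 13 chaperones and regulators of carriers tested, 3 were higher and 6 lower in RAS (all genes 31.9% and 32%). The counts were 5 and 3 in RAS/shDOT1L against RAS (all genes 26.3% and 26.4%), and 3 and 8 in DOT1L OE (all genes 29.9% each way). SLC16A7 (MCT2), a pyruvate carrier of high affinity, fell in RAS against control (edgeR log2 change -2.25 ± 0.36, adjusted p = 1.91e-06), by less in the GC-offset fit (-1.64), and also in DOT1L OE against control (edgeR log2 change -0.83 ± 0.23, adjusted p = 0.00283). SLC16A4, a less studied relative, had 21.1, 21.6 and 21.8 CPM in RAS/shDOT1L and 7.98, 8.36 and 7.91 CPM in RAS. The other groups had 9.44, 6.54 and 7.86 CPM (DOT1L OE) and 21.4, 19.99 and 22.4 CPM (control). It fell in RAS against control (edgeR log2 change -1.39 ± 0.15, adjusted p = 9.71e-10) and in DOT1L OE against control (edgeR log2 change -1.42 ± 0.14, adjusted p = 1.82e-10), and rose in RAS/shDOT1L against RAS (edgeR log2 change 1.43 ± 0.16, adjusted p = 4.72e-09). SLC16A14 rose in DOT1L OE (edgeR log2 change 2.49 ± 0.14, adjusted p = 2.46e-16), with 26.1, 26.2 and 26.3 CPM in DOT1L OE, against 5.21, 4.96 and 3.82 CPM in control. It fell in RAS against control (edgeR log2 change -1.21 ± 0.35, adjusted p = 0.00331). SLC16A12, a creatine carrier picked here after its values were seen, had 8 counts over the 3 RAS libraries, 15 over the DOT1L OE libraries and 266 over the control libraries. These counts are a description with no test, since the count minimum was met in control libraries alone.

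The sodium-phosphate symporters PiT-1 and PiT-2 moved in opposite directions. SLC20A1 (PiT-1; ENSG00000144136, chr2:112645939-112663825, plus strand) had 169, 188 and 172 CPM in RAS/shDOT1L and 636, 680.4 and 653 CPM in RAS. Levels were 193, 201 and 203 CPM in DOT1L OE and 106, 107 and 111 CPM in control. RAS libraries were the highest and control libraries the lowest, with no overlap between groups that were compared. SLC20A1 rose in RAS against control (edgeR log2 change 2.604 ± 0.04, adjusted p = 3.42e-31), fell in RAS/shDOT1L against RAS (edgeR log2 change -1.88 ± 0.05, adjusted p = 5.91e-25) and rose in DOT1L OE against control (edgeR log2 change 0.89 ± 0.05, adjusted p = 9.03e-16). SLC20A2 (PiT-2) had 83.3, 75.3 and 75.8 CPM in RAS/shDOT1L and 68.8, 70.6 and 67.3 CPM in RAS. With DOT1L OE they were 60.4, 67.5 and 57.3 CPM, beside 182, 196 and 186 CPM in control. It was highest in control and fell in RAS (edgeR log2 change -1.45 ± 0.06, adjusted p = 1.45e-20), in DOT1L OE (edgeR log2 change -1.601 ± 0.06, adjusted p = 1.31e-20) and in RAS/shDOT1L against control (edgeR log2 change -1.26 ± 0.06, adjusted p = 4.84e-16). Its rise in RAS/shDOT1L against RAS (edgeR log2 change 0.20 ± 0.08, adjusted p = 0.0315) was lost when any 1 of the 3 RAS libraries was left out (edgeR adjusted p of 0.0602 to 0.117) or the first RAS/shDOT1L library (0.138).

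SLC14A1, the urea channel UT-B, had 16.3, 19.4 and 21.1 CPM in RAS/shDOT1L and 32.4, 37.5 and 34.9 CPM in RAS. Values of 2.77, 1.82 and 1.68 CPM in DOT1L OE stood beside 2.89, 2.32 and 3.87 CPM in control. Both groups with HRAS G12V were high and the other groups low. SLC14A1 rose in RAS against control (edgeR log2 change 3.52 ± 0.17, adjusted p = 1.33e-18) and fell in RAS/shDOT1L against RAS (edgeR log2 change -0.86 ± 0.13, adjusted p = 8.74e-07), staying 6.25-fold over control there. Its DOT1L OE value was not called (edgeR log2 change -0.54 ± 0.33, adjusted p = 0.16). SLC6A8, the creatine symporter, and SLC6A6, the taurine symporter, both rose in RAS (edgeR log2 change 1.41 ± 0.07, adjusted p = 1.4e-18 for SLC6A8, and edgeR log2 change 0.58 ± 0.08, adjusted p = 3.99e-07 for SLC6A6). SLC6A8 fell in RAS/shDOT1L against RAS, with 41.9, 34.99 and 29.6 CPM in RAS/shDOT1L, against 121, 119.99 and 122 CPM in RAS (edgeR log2 change -1.75 ± 0.09, adjusted p = 3.13e-17). SLC6A6 rose there, with 133, 129 and 138 CPM in RAS/shDOT1L, against 69.4, 71.5 and 64.3 CPM in RAS (edgeR log2 change 0.98 ± 0.07, adjusted p = 1.16e-13).

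**Figure D2:**
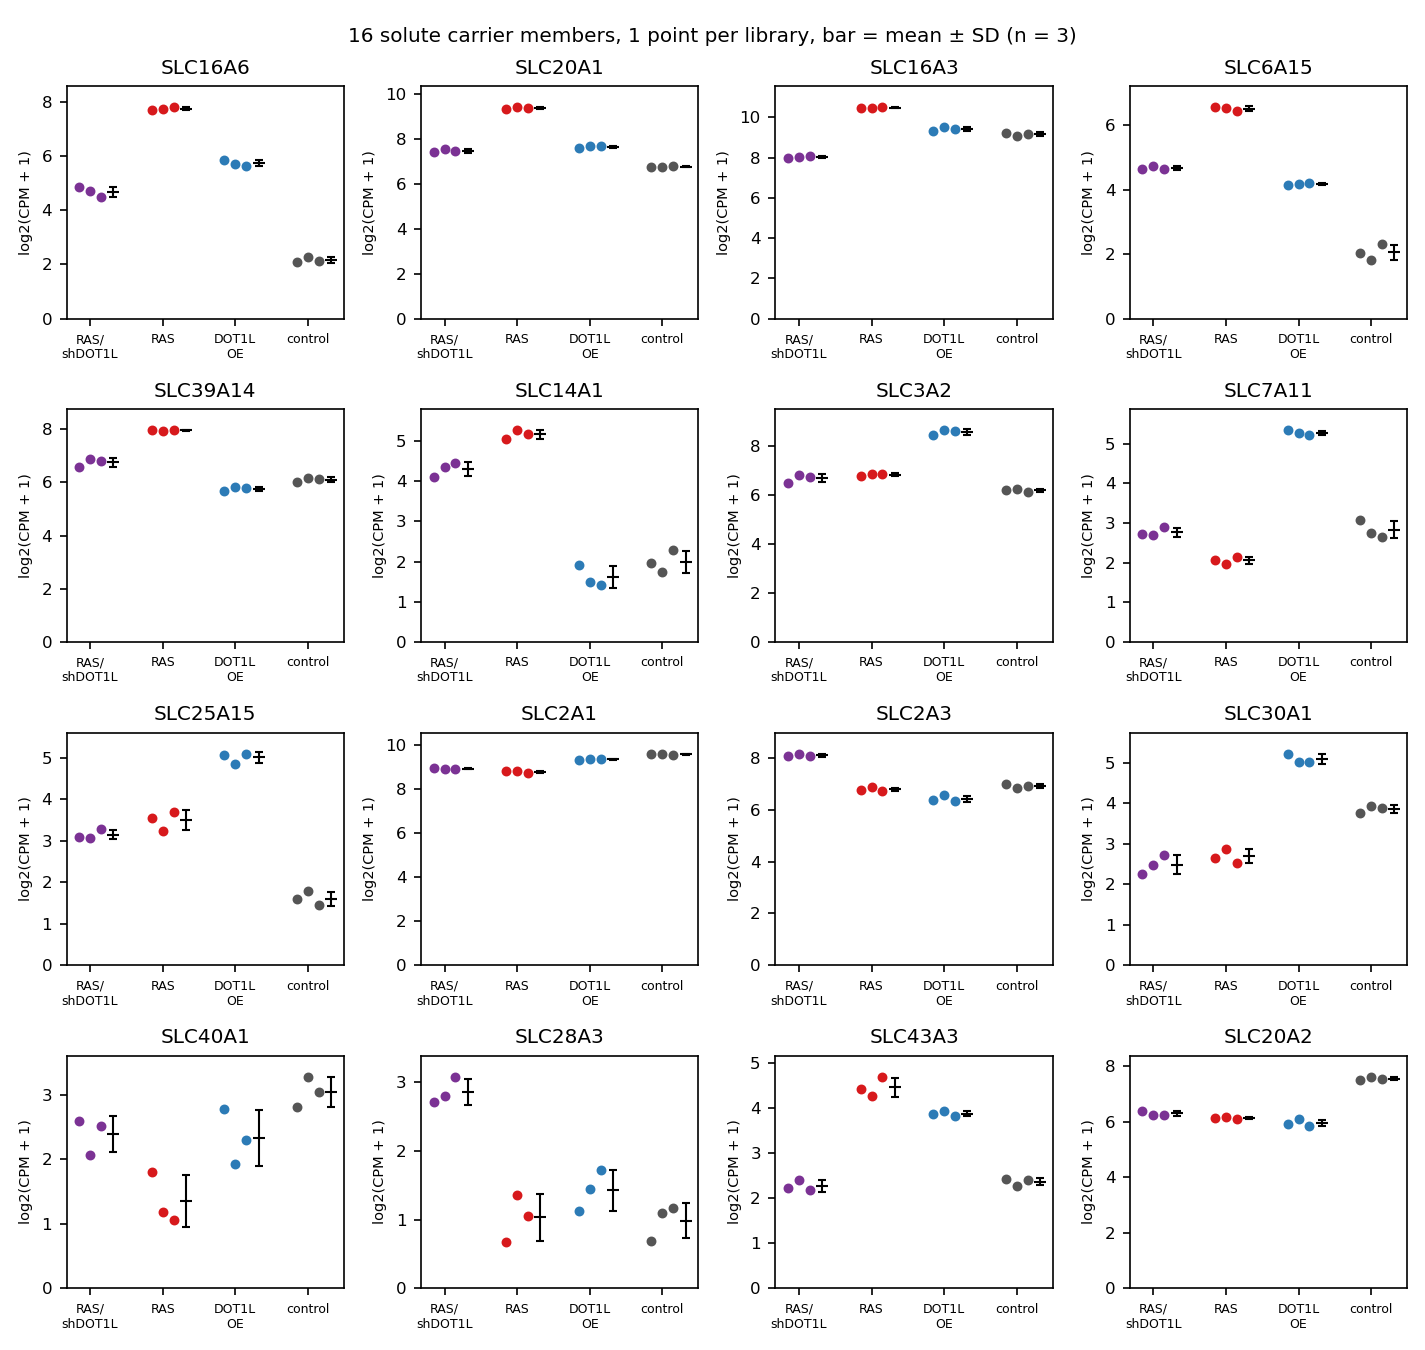
Log2(CPM + 1) of 16 members in each library (vertical axis), with RAS/shDOT1L, RAS, DOT1L OE and control from left to right, 1 point per library and the mean ± SD (n = 3) beside each group. SLC16A6, SLC20A1 and SLC39A14 are highest in the 3 RAS libraries, whereas SLC3A2, SLC7A11, SLC25A15 and SLC30A1 are highest in the 3 DOT1L OE libraries.

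Amino acid transporters had the highest share of members called higher and the highest median log2 change of the 5 named substrate families in DOT1L OE against control. Of 27 members, 17 rose and 4 fell (63.0% and 14.8%, beside 29.9% in each direction among all genes). By over 1.5-fold, 9 rose and 2 fell, where 11.2% and 9.58% of all genes passed. The median log2 change of the family was 0.54. Under library size alone and in the GC-offset fit that median was 0.62 and 0.71. Summed over the family, the level per kilobase of exon was 475 ± 4.72 CPM per kb in DOT1L OE and 287 ± 2.63 CPM per kb in control. In RAS cells 12 rose and 10 fell (44.4% and 37.0%, beside 31.9% and 32% of all genes), and the sum was 298 ± 2.81 CPM per kb. In RAS/shDOT1L against RAS 5 of 26 rose and 11 fell (19.2% and 42.3%, beside 26.3% and 26.4%), and the sum was 214 ± 5.49 CPM per kb. The part of these sums that comes from each member differed: SLC38A2 gave 28.9% in DOT1L OE and 33.04% in control, but 13.2% in RAS/shDOT1L and 14.1% in RAS.

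The heavy chain SLC3A2 (4F2hc, CD98) and the light chains SLC7A5, SLC7A11 and SLC7A7 were among the members that rose in DOT1L OE. The light chain SLC7A6 (y+LAT2), named after its values were seen, was not called there, with 26.98, 28.4 and 23.1 CPM in DOT1L OE, against 26.5, 25.5 and 24.7 CPM in control (edgeR log2 change 0.036 ± 0.10, adjusted p = 0.786). SLC3A2 (ENSG00000168003, chr11:62856004-62888880, plus strand), which carries light chains of the SLC7 family to the plasma membrane, had 345, 397 and 393 CPM in DOT1L OE, against 73.5, 74.3 and 68.8 CPM in control, a 5.26-fold rise without overlap (edgeR log2 change 2.39 ± 0.06, adjusted p = 5.12e-26). SLC7A5 (LAT1; ENSG00000103257, chr16:87830023-87869507, minus strand), the light chain that brings in leucine and other large neutral amino acids, had 291, 291 and 289 CPM in DOT1L OE, against 131, 131 and 124 CPM in control (edgeR log2 change 1.18 ± 0.05, adjusted p = 9.81e-20). SLC7A11 (xCT; ENSG00000151012), the light chain that exchanges cystine for glutamate, had 39.4, 37.6 and 36.6 CPM in DOT1L OE, against 7.38, 5.77 and 5.28 CPM in control, a 6.18-fold rise (edgeR log2 change 2.63 ± 0.13, adjusted p = 3.59e-18). SLC7A7, the light chain y+LAT1, and SLC7A2, a cationic amino acid transporter that needs no heavy chain, also rose (edgeR log2 change 1.14 ± 0.29, adjusted p = 0.000968 for SLC7A7, and edgeR log2 change 1.68 ± 0.13, adjusted p = 3.37e-13 for SLC7A2). SLC7A1 (CAT1), its relative, was not called (edgeR log2 change -0.091 ± 0.06, adjusted p = 0.218), except in the GC-offset fit (-0.18, adjusted p = 0.0122).

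The same chains differed in direction in RAS cells. SLC3A2 rose there, with 108, 115 and 115 CPM in RAS, against 73.5, 74.3 and 68.8 CPM in control (edgeR log2 change 0.64 ± 0.06, adjusted p = 2.58e-10). SLC7A5 rose as well, with 189, 167 and 174 CPM in RAS, against 131, 131 and 124 CPM in control (edgeR log2 change 0.46 ± 0.06, adjusted p = 1.42e-08), but the GC-offset fit gave -0.086 for SLC7A5 (adjusted p = 0.201). SLC7A11 fell instead, with 3.16, 2.91 and 3.45 CPM in RAS, against 7.38, 5.77 and 5.28 CPM in control (edgeR log2 change -0.95 ± 0.27, adjusted p = 0.00267). The GC-offset fit ended that call (-0.34, adjusted p = 0.303). SLC7A7 rose, with 8.52, 15.3 and 13.6 CPM in RAS, against 2.32, 1.56 and 2.76 CPM in control (edgeR log2 change 2.48 ± 0.26, adjusted p = 3.78e-10). SLC3A2 and SLC7A5 were not called in RAS/shDOT1L against RAS (edgeR log2 change -0.12 ± 0.08, adjusted p = 0.191 for SLC3A2, and edgeR log2 change -0.043 ± 0.06, adjusted p = 0.604 for SLC7A5, which turned to 0.32 in the GC-offset fit). The difference between the RAS effect and the DOT1L OE effect was not tested for any member, and both comparisons use the same control libraries.

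The promoters of SLC3A2 and SLC7A5 are printed because both chains of 1 transporter rose in DOT1L OE and both windows hold the core of the antioxidant response element, TGACNNNGC (either strand), shown in capitals. Windows run from 250 bases before to 50 after the start that RefSeq gives (GRCh38.p14). That of SLC3A2 is chr11:62881449-62881748 (plus strand), inside the GENCODE span of the gene, and that of SLC7A5 is chr16:87869458-87869757 (minus strand), across its first base. A match is a description of letters and not a bound site. Of 155 members with a promoter in the RefSeq table, 28 (18.1%) held this core, beside 4687 of all 35116 promoters (13.3%). Among the 28 were SLC7A7, which rose in DOT1L OE, and SLC7A6 and SLC7A1, which did not. SLC7A6 was not called there, and SLC7A1 was called only in the GC-offset fit, as lower. The core of the amino acid response element, TGATGNAA, was in 8 members (5.16%, beside 3.62% of all), SLC3A2 and SLC7A1 among them.
SLC3A2 promoter: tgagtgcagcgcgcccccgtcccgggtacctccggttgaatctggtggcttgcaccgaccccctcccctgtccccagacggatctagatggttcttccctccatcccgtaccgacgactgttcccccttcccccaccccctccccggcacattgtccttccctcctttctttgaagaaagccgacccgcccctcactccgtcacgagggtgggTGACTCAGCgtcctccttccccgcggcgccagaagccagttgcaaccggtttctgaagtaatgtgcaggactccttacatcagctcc
SLC7A5 promoter: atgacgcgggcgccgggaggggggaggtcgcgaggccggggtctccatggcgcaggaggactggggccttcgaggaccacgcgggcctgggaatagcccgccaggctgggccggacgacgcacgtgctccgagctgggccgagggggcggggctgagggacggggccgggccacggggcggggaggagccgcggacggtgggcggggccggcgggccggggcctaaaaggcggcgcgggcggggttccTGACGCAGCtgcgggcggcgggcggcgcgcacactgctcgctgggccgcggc

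Transporters of glutamine, alanine and related neutral amino acids differed in direction in RAS. SLC38A5 (SNAT5) and SLC38A7 (SNAT7), both named after their values were seen, rose in RAS against control (edgeR log2 change 0.94 ± 0.08, adjusted p = 2.24e-12 for SLC38A5, and edgeR log2 change 0.72 ± 0.08, adjusted p = 4.37e-09 for SLC38A7) and in DOT1L OE (edgeR log2 change 0.92 ± 0.07, adjusted p = 1.47e-12 for SLC38A5, and edgeR log2 change 0.56 ± 0.08, adjusted p = 3.11e-07 for SLC38A7). SLC1A5 (ASCT2), which takes up glutamine, had 117, 126 and 116 CPM in RAS/shDOT1L and 242, 231 and 246 CPM in RAS. DOT1L OE libraries held 285, 287 and 299.99 CPM, and control libraries 162, 163 and 166 CPM. It rose in DOT1L OE (edgeR log2 change 0.83 ± 0.05, adjusted p = 4.43e-16) and fell in RAS/shDOT1L against RAS (edgeR log2 change -0.98 ± 0.06, adjusted p = 1.2e-15), while its rise in RAS against control (edgeR log2 change 0.55 ± 0.05, adjusted p = 1.01e-11) was not called in the GC-offset fit (adjusted p = 0.947). SLC38A2 (SNAT2), the amino acid symporter that cells raise when amino acids are short, had 178, 175 and 196 CPM in RAS/shDOT1L and 273, 270.5 and 279 CPM in RAS. In DOT1L OE the values were 884, 906 and 893 CPM, against 642, 592 and 616 CPM in control. DOT1L OE libraries were the highest and both HRAS groups the lowest. SLC38A2 rose in DOT1L OE against control (edgeR log2 change 0.54 ± 0.04, adjusted p = 1.39e-13) and fell in RAS against control (edgeR log2 change -1.17 ± 0.04, adjusted p = 1.76e-22) and in RAS/shDOT1L against RAS (edgeR log2 change -0.56 ± 0.06, adjusted p = 2.42e-10). SLC38A1 (SNAT1), a glutamine symporter, fell in RAS (edgeR log2 change -0.95 ± 0.07, adjusted p = 2.76e-14) and rose in DOT1L OE (edgeR log2 change 0.30 ± 0.05, adjusted p = 1.08e-05). SLC1A4 (ASCT1), named here after its values were seen, also fell in RAS (edgeR log2 change -1.21 ± 0.14, adjusted p = 3.6e-09) and rose in DOT1L OE (edgeR log2 change 0.95 ± 0.09, adjusted p = 9.44e-11). SLC7A1, the arginine and lysine carrier, had 70.7, 72.1 and 71.98 CPM in RAS/shDOT1L and 48.4, 47.5 and 49.01 CPM in RAS. The other groups had 83.1, 77.2 and 79.3 CPM (DOT1L OE) and 84.002, 87.9 and 83.8 CPM (control). It fell in RAS (edgeR log2 change -0.82 ± 0.07, adjusted p = 1.14e-11) and rose in RAS/shDOT1L against RAS (edgeR log2 change 0.59 ± 0.08, adjusted p = 3.59e-07).

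SLC6A15, a symporter of branched-chain amino acids and proline best known from neurons, had 23.9, 25.5 and 24.1 CPM in RAS/shDOT1L and 93.1, 92.3 and 84.8 CPM in RAS. Levels were 16.6, 17.04 and 17.3 CPM in DOT1L OE and 3.096, 2.53 and 3.92 CPM in control. Its 28.1-fold rise in RAS (edgeR log2 change 4.81 ± 0.12, adjusted p = 3.71e-26, and a log2 change of 5.42 in the GC-offset fit) was the largest of the family there, and it fell in RAS/shDOT1L against RAS (edgeR log2 change -1.86 ± 0.09, adjusted p = 5.6e-18) and rose in DOT1L OE (edgeR log2 change 2.41 ± 0.17, adjusted p = 8.79e-14). SLC66A1, which lets arginine and lysine out of lysosomes, had 81.03, 86.2 and 76.1 CPM in RAS, against 22.3, 22.3 and 29.4 CPM in control (edgeR log2 change 1.72 ± 0.10, adjusted p = 1.21e-16, against 1.12 in the GC-offset fit), and fell in RAS/shDOT1L against RAS (edgeR log2 change -1.22 ± 0.09, adjusted p = 4.7e-13). SLC36A1, which lets small neutral amino acids out of lysosomes with protons, fell in RAS/shDOT1L against RAS, with 10.1, 11.5 and 13.8 CPM in RAS/shDOT1L, against 36.7, 45.7 and 32.5 CPM in RAS (edgeR log2 change -1.68 ± 0.15, adjusted p = 1.46e-11). Its rise in RAS (edgeR log2 change 0.33 ± 0.12, adjusted p = 0.0181) overlapped between groups. It was lost without RAS replicate 2 (0.18, adjusted p = 0.221), without control replicate 1 (0.20, adjusted p = 0.18), under library size alone (0.13, adjusted p = 0.347) and in the GC-offset fit (0.16, adjusted p = 0.269). SLC38A10 fell in RAS/shDOT1L against RAS (edgeR log2 change -0.94 ± 0.07, adjusted p = 5.27e-14). It was not called in RAS against control, where its 0.078 ± 0.05 became -0.12 under library size alone and -0.52 in the GC-offset fit.

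Some amino acid transporters moved against the majority of the family. The 4 that fell in DOT1L OE were SLC1A1, a glutamate symporter, at -1.07, SLC38A4 at -0.85, SLC38A6 at -0.43 and SLC43A2, a carrier of large neutral amino acids, at -1.63 on the log2 scale. The SLC38A4 call was lost in 1 fit over the 4 groups (adjusted p = 0.093). The SLC38A6 call was lost without DOT1L OE replicate 2 or 3 or control replicate 3 (edgeR adjusted p of 0.065 to 0.105). The 5 that rose in RAS/shDOT1L against RAS were SLC7A1, SLC1A1 at 0.63, SLC38A9, an arginine sensor of lysosomes, at 0.41, SLC7A11, with 5.54, 5.46 and 6.43 CPM in RAS/shDOT1L, against 3.16, 2.91 and 3.45 CPM in RAS (edgeR log2 change 0.89 ± 0.30, adjusted p = 0.0126), and SLC38A4 at 1.66. In the GC-offset fit SLC7A11 came to 0.49 (adjusted p = 0.186) and SLC38A9 to 0.019 (adjusted p = 0.937). SLC38A9 lost its call without any 1 library other than RAS/shDOT1L replicate 3 (adjusted p of 0.0515 to 0.107). SLC38A4 kept its call without RAS replicate 2 (2.62) or RAS/shDOT1L replicate 2 (2.13) and lost it without any other 1 library, falling to 0.71 without RAS/shDOT1L replicate 3, and in the GC-offset fit (1.32, adjusted p = 0.132). The number of amino acid members called higher there was 3 without RAS replicate 1 or 3. SLC1A3 (EAAT1), a glutamate symporter at low levels, had 2.502, 4.48 and 3.45 CPM in RAS, against 0.464, 0.216 and 0.452 CPM in control (edgeR log2 change 3.17 ± 0.53, adjusted p = 4.44e-06). It fell in RAS/shDOT1L against RAS (edgeR log2 change -2.56 ± 0.60, adjusted p = 0.000547, and -3.56 without RAS/shDOT1L replicate 1). Its rise in DOT1L OE (edgeR log2 change 1.37 ± 0.59, adjusted p = 0.0463) was lost without any 1 library (edgeR adjusted p of 0.0685 to 0.193).

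**Figure D3:**
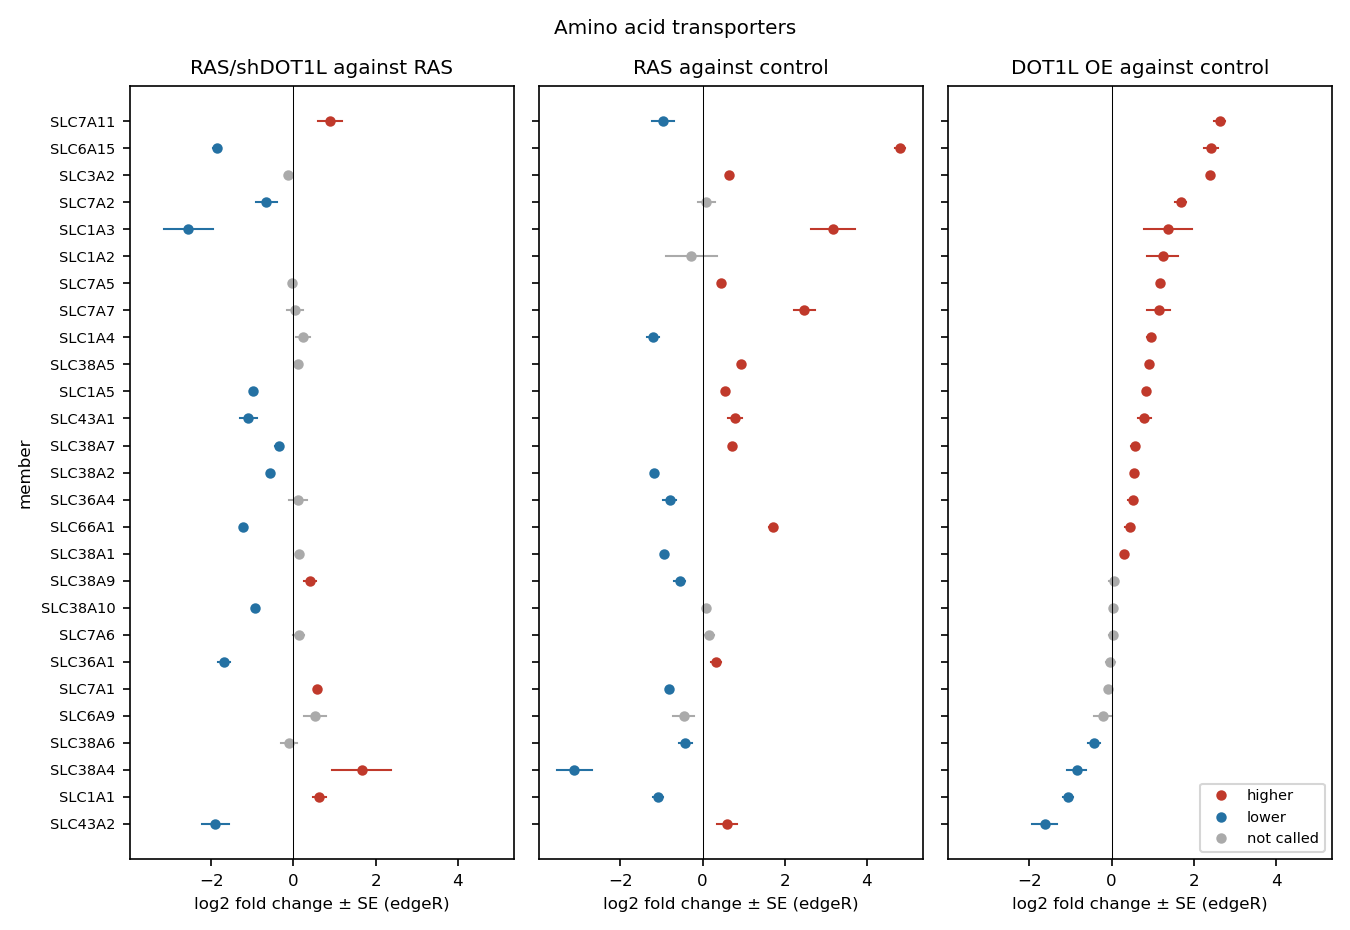
Log2 fold change ± SE (edgeR, horizontal axis) of the 27 amino acid transporters in RAS/shDOT1L against RAS, RAS against control and DOT1L OE against control, ordered by the last, with calls in red (higher) or blue (lower). In DOT1L OE 17 members lie to the right of 0 and are called, from SLC38A1 at 0.30 to SLC7A11 at 2.63.

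Of 17 genes of the response to amino acid shortage, 4 were higher and 7 lower in DOT1L OE, beside 29.9% each way of all genes. The counts in RAS against control were 9 higher and 5 lower, beside 31.9% and 32% of all genes. ATF4, the factor that drives the response, averaged 164 ± 7.35 CPM in DOT1L OE and 221 ± 11.5 CPM in control (edgeR log2 change -0.43 ± 0.05, adjusted p = 2.23e-08). ASNS, asparagine synthetase, averaged 10.4 ± 0.131 CPM in DOT1L OE and 28.4 ± 4.17 CPM in control (edgeR log2 change -1.44 ± 0.12, adjusted p = 6.97e-12). CHAC1, which breaks down glutathione, went the other way, with 161 ± 5.51 CPM in DOT1L OE and 46.2 ± 5.44 CPM in control (edgeR log2 change 1.804 ± 0.07, adjusted p = 1.23e-20).

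Of the 12 sugar transporters, 1 rose and 6 fell in DOT1L OE against control (8.33% and 50.0%, beside 29.9% each of all genes). In RAS 3 rose and 2 fell (all genes 31.9% and 32%), and in RAS/shDOT1L against RAS 3 rose and 3 fell (all genes 26.3% and 26.4%). The summed level was 153 ± 4.21 CPM per kb in RAS/shDOT1L, 148 ± 4.15 in RAS, 141 ± 3.3001 in DOT1L OE and 172 ± 3.14 in control. SLC2A1 (GLUT1; ENSG00000117394, chr1:42925353-42958893, minus strand), the basal glucose uniporter and the most abundant of them per kilobase, had 492, 486 and 474 CPM in RAS/shDOT1L and 445, 446 and 422 CPM in RAS. With DOT1L OE they were 645, 664 and 649.7 CPM, beside 768, 781 and 752 CPM in control. It was lower in RAS (edgeR log2 change -0.81 ± 0.04, adjusted p = 3.64e-19), in DOT1L OE (edgeR log2 change -0.23 ± 0.04, adjusted p = 4.61e-06) and in RAS/shDOT1L (edgeR log2 change -0.66 ± 0.04, adjusted p = 5.6e-14) than in control, and slightly higher in RAS/shDOT1L than in RAS (edgeR log2 change 0.16 ± 0.05, adjusted p = 0.00321). Its share of the summed level was 47.9% in RAS/shDOT1L, 44.7% in RAS, 69.9% in DOT1L OE and 67.6% in control.

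The genes that held much of the rest of the sum differed between RAS/shDOT1L and RAS. SLC2A3 (GLUT3), a uniporter of high affinity, had 268, 288 and 267 CPM in RAS/shDOT1L and 109, 116 and 106 CPM in RAS. Values of 82.6, 94.1 and 80.1 CPM in DOT1L OE stood beside 126, 115 and 119 CPM in control. It rose in RAS/shDOT1L against RAS (edgeR log2 change 1.33 ± 0.06, adjusted p = 3.71e-19) and against control (edgeR log2 change 1.196 ± 0.06, adjusted p = 8.52e-17). Its share of the summed level was 24.8% in RAS/shDOT1L and 10.3% in RAS. It was not called in RAS against control (edgeR log2 change -0.13 ± 0.06, adjusted p = 0.0702) but was called lower there under library size alone (-0.32, adjusted p = 2.44e-05). In DOT1L OE it fell (edgeR log2 change -0.49 ± 0.06, adjusted p = 7.16e-08). SLC2A3 and SLC2A14 are near-identical copies, so counts between them are uncertain. SLC2A6 (GLUT6), a carrier of inner membranes, had 42.3, 52.3 and 38.1 CPM in RAS/shDOT1L and 104, 119.7 and 108 CPM in RAS. DOT1L OE libraries held 23.7, 24.98 and 26.9 CPM, and control libraries 29.7, 35.1 and 27.6 CPM. It rose 3.59-fold in RAS (edgeR log2 change 1.84 ± 0.08, adjusted p = 3.7e-19, against 1.24 in the GC-offset fit) and fell in RAS/shDOT1L against RAS (edgeR log2 change -1.303 ± 0.09, adjusted p = 7.54e-14). It held 8.18% of the summed level in RAS/shDOT1L and 21.1% in RAS. Its fall in DOT1L OE (edgeR log2 change -0.28 ± 0.10, adjusted p = 0.0196) was lost without DOT1L OE replicate 1 (adjusted p = 0.0818) or 2 (0.0676), without control replicate 2 (0.14) and under library size alone (0.0926).

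Among the rest, SLC2A12 (GLUT12) fell in RAS (edgeR log2 change -2.16 ± 0.47, adjusted p = 0.000155) and rose in RAS/shDOT1L against RAS (edgeR log2 change 1.74 ± 0.58, adjusted p = 0.012), where the call was lost when RAS replicate 2 (edgeR adjusted p = 0.051) or RAS/shDOT1L replicate 1 was left out (0.0618). SLC2A10 (GLUT10) fell in DOT1L OE (edgeR log2 change -0.74 ± 0.07, adjusted p = 1.97e-10), and in RAS/shDOT1L against RAS (edgeR log2 change -0.25 ± 0.08, adjusted p = 0.0117), the second not under library size alone (adjusted p = 0.0698). SLC50A1, a sugar carrier of the SWEET family, rose in RAS (edgeR log2 change 0.62 ± 0.13, adjusted p = 9.78e-05) and fell in RAS/shDOT1L against RAS (edgeR log2 change -0.49 ± 0.13, adjusted p = 0.00247). SLC2A8 (GLUT8) rose in RAS (edgeR log2 change 0.63 ± 0.13, adjusted p = 6.4e-05) and was the 1 sugar transporter that rose in DOT1L OE (edgeR log2 change 0.34 ± 0.11, adjusted p = 0.0122). The GC-offset fit ended both SLC2A8 calls (0.049 in RAS, adjusted p = 0.774, and 0.22 in DOT1L OE, adjusted p = 0.102), and the DOT1L OE call was also lost without control replicate 2 (adjusted p = 0.0526). SLC2A4 (GLUT4), the insulin-responsive carrier of fat and muscle, was at the edge of detection, with 0.213, 0.467 and 0 CPM in DOT1L OE, against 2.53, 0.593 and 1.96 CPM in control (edgeR log2 change -2.86 ± 0.69, adjusted p = 0.000588). The fall was -3.97 without DOT1L OE replicate 2 and -2.27 without DOT1L OE replicate 3. SLC45A1, a sugar-proton symporter, fell in RAS/shDOT1L against control (edgeR log2 change -1.32 ± 0.34, adjusted p = 0.00153).

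**Figure D4:**
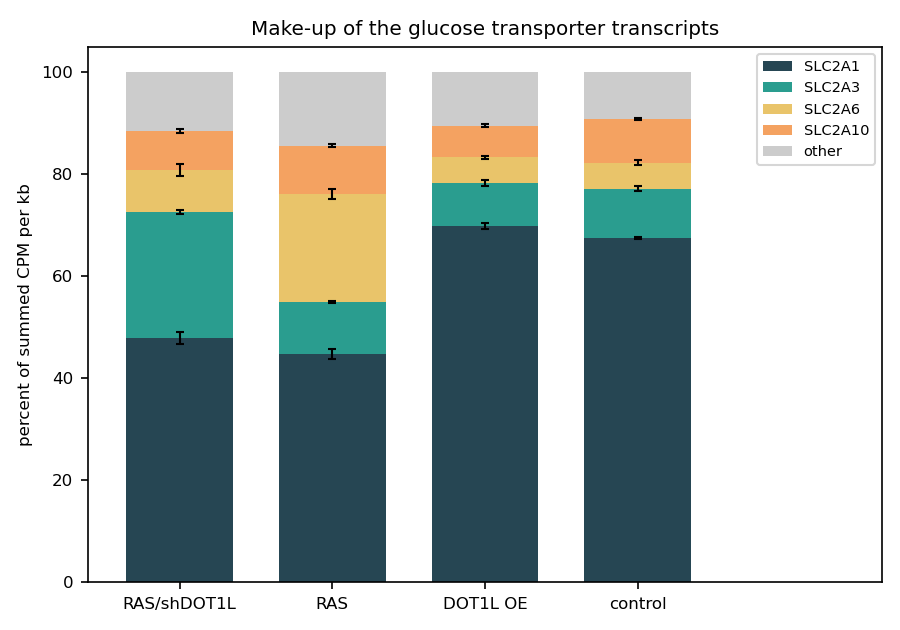
Share of the summed CPM per kb of the 12 sugar transporters (percent, vertical axis) held by SLC2A1, SLC2A3, SLC2A6, SLC2A10 and the other 8, as the mean of 3 libraries per group with the SD of each named share as an error bar. SLC2A1 holds 69.9% in DOT1L OE and 67.6% in control, while SLC2A3 holds 24.8% in RAS/shDOT1L and SLC2A6 21.1% in RAS.

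Of the 23 metal transporters, 8 rose and 9 fell in RAS (34.8% and 39.1%, beside 31.9% and 32% of all genes). Of the same 23, 5 rose and 7 fell in RAS/shDOT1L against RAS (21.7% and 30.4%, beside 26.3% and 26.4%), and in DOT1L OE 7 rose and 11 fell (30.4% and 47.8%, beside 29.9% each way). Most of these shares lay near those of all genes. The summed level was 279 ± 8.995 CPM per kb in RAS/shDOT1L, 343 ± 6.57 in RAS, 285 ± 3.89 in DOT1L OE and 299.98 ± 4.66 in control. SLC39A14 (ZIP14; ENSG00000104635), which brings zinc, iron and manganese into the cytosol, had 93.4, 118 and 109.6 CPM in RAS/shDOT1L and 247, 246 and 247 CPM in RAS. In DOT1L OE the values were 50.2, 55.2 and 53.8 CPM, against 62.8, 70.5 and 69.2 CPM in control. It rose 3.65-fold in RAS (edgeR log2 change 1.87 ± 0.06, adjusted p = 3.31e-24) and fell in RAS/shDOT1L against RAS (edgeR log2 change -1.19 ± 0.07, adjusted p = 1.96e-16). In DOT1L OE it fell slightly (edgeR log2 change -0.34 ± 0.07, adjusted p = 0.000151). SLC11A2 (DMT1), which moves ferrous iron out of endosomes, had 42.97, 57.6 and 51.9 CPM in RAS/shDOT1L and 98.1, 97.3 and 91.8 CPM in RAS. The other groups had 35.4, 33.3 and 32.6 CPM (DOT1L OE) and 50.2, 44.2 and 45.5 CPM (control). It likewise rose in RAS (edgeR log2 change 1.04 ± 0.07, adjusted p = 5.26e-14), fell in RAS/shDOT1L against RAS (edgeR log2 change -0.89 ± 0.09, adjusted p = 2.44e-10) and fell in DOT1L OE (edgeR log2 change -0.46 ± 0.08, adjusted p = 1.76e-05). SLC39A8 (ZIP8), the closest relative of ZIP14, rose in RAS (edgeR log2 change 1.56 ± 0.22, adjusted p = 3.04e-07) and was not called in RAS/shDOT1L against RAS, with 9.91, 10.2 and 13.5 CPM in RAS/shDOT1L, against 11.7, 14.3 and 8.93 CPM in RAS, groups that overlapped (edgeR log2 change -0.039 ± 0.20, adjusted p = 0.889).

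Ferroportin and ZnT1, which carry metals out of the cell, were lower in RAS than in control. SLC40A1 (ferroportin; ENSG00000138449), the iron exporter of cells, had 5.02, 3.198 and 4.73 CPM in RAS/shDOT1L and 2.502, 1.27 and 1.08 CPM in RAS. Levels were 5.92, 2.802 and 3.93 CPM in DOT1L OE and 6.04, 8.73 and 7.29 CPM in control. RAS libraries were the lowest. Ferroportin mRNA fell in RAS against control (edgeR log2 change -2.17 ± 0.32, adjusted p = 3.66e-07), rose in RAS/shDOT1L against RAS (edgeR log2 change 1.42 ± 0.41, adjusted p = 0.00423) and fell in DOT1L OE against control (edgeR log2 change -0.81 ± 0.23, adjusted p = 0.00333). SLC30A1 (ZnT1; ENSG00000170385, chr1:211571568-211579161, minus strand), the zinc exporter of the plasma membrane, had 3.78, 4.52 and 5.61 CPM in RAS/shDOT1L and 5.303, 6.36 and 4.79 CPM in RAS. With DOT1L OE they were 36.5, 31.7 and 31.6 CPM, beside 12.5, 14.2 and 13.9 CPM in control. DOT1L OE libraries were the highest and both HRAS groups the lowest. SLC30A1 rose in DOT1L OE (edgeR log2 change 1.299 ± 0.11, adjusted p = 5.21e-12) and fell in RAS (edgeR log2 change -1.302 ± 0.19, adjusted p = 3.52e-07), and RAS/shDOT1L against RAS was not called (edgeR log2 change -0.22 ± 0.28, adjusted p = 0.537). SLC30A4 (ZnT4), which loads zinc into vesicles, fell in RAS (edgeR log2 change -1.53 ± 0.18, adjusted p = 3.71e-09) and in DOT1L OE (edgeR log2 change -1.02 ± 0.15, adjusted p = 6.45e-07).

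The promoter of SLC30A1 is printed because it rose in DOT1L OE and fell in RAS and is a textbook target of the zinc sensor MTF1. The window (RefSeq, GRCh38.p14, chr1:211579112-211579411, minus strand) holds the core of the metal response element, searched as TGCNCNC on either strand, at 2 places that are in capitals as read on the printed strand. Such cores are common: 99 of 155 members (63.9%) and 55.9% of all 35116 promoters held one.
SLC30A1 promoter: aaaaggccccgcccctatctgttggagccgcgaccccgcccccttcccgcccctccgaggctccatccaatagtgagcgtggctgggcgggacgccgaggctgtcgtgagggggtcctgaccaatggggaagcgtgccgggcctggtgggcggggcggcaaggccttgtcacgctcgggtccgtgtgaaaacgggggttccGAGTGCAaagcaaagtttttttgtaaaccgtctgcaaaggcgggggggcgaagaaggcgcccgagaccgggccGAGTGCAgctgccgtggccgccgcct

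Other zinc carriers lie in the early secretory pathway and the plasma membrane. SLC39A7 (ZIP7), which releases zinc from the endoplasmic reticulum, had 322, 330.04 and 327 CPM in RAS, against 267, 248 and 243 CPM in control (edgeR log2 change 0.37 ± 0.04, adjusted p = 1.21e-08, but 0.027 in the GC-offset fit, adjusted p = 0.644), and fell in RAS/shDOT1L against RAS (edgeR log2 change -0.57 ± 0.05, adjusted p = 6.73e-11). SLC39A13 (ZIP13), a zinc carrier needed in connective tissue, fell in DOT1L OE (edgeR log2 change -0.75 ± 0.05, adjusted p = 8.58e-14). Its rise in RAS (edgeR log2 change 0.46 ± 0.05, adjusted p = 2.74e-10) turned to -0.12 in the GC-offset fit, and its fall in RAS/shDOT1L against RAS (edgeR log2 change -0.26 ± 0.05, adjusted p = 6.77e-05) to 0.15. SLC39A1 (ZIP1) fell in RAS (edgeR log2 change -0.48 ± 0.05, adjusted p = 1.72e-09), and its fall in RAS/shDOT1L against RAS (edgeR log2 change -0.29 ± 0.07, adjusted p = 0.000525) came to -0.018 in the GC-offset fit (adjusted p = 0.857). SLC39A10 (ZIP10) rose in DOT1L OE, with 50.3, 53.4 and 51.7 CPM in DOT1L OE, against 26.8, 22.4 and 29.7 CPM in control (edgeR log2 change 0.98 ± 0.09, adjusted p = 8.1e-11). The 5 that rose in RAS/shDOT1L against RAS were SLC40A1, SLC39A10 at 0.60, SLC39A6 (ZIP6) at 0.46, SLC30A6 (ZnT6) at 0.67 and SLC30A9 at 0.80. SLC39A10 and SLC30A6 lost that call in the GC-offset fit, at 0.24 (adjusted p = 0.127) and 0.31 (adjusted p = 0.0586).

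**Figure D5:**
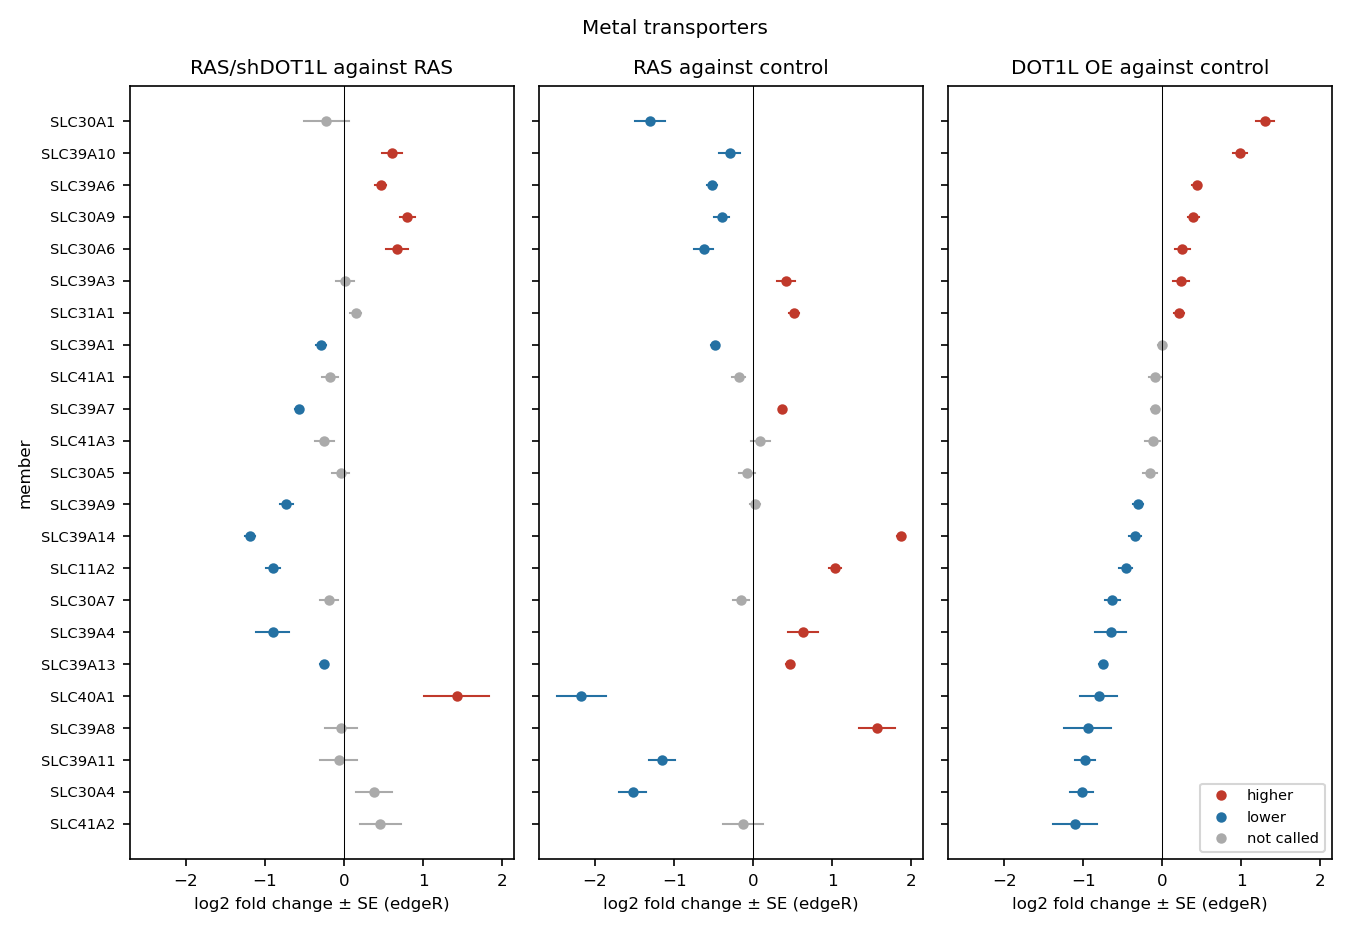
Log2 fold change ± SE (edgeR, horizontal axis) of the 23 metal transporters in RAS/shDOT1L against RAS, RAS against control and DOT1L OE against control, ordered by the last, with calls in red (higher) or blue (lower). In RAS against control SLC39A14 lies at 1.87 and SLC40A1 at -2.17, and in RAS/shDOT1L against RAS they lie at -1.19 and 1.42.

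Of 16 metal-binding and uptake genes tested beside them, 12 were higher and 2 lower in RAS, beside 31.9% and 32% of all genes. In DOT1L OE 4 were higher and 5 lower (all genes 29.9% each way), and in RAS/shDOT1L against RAS 4 of 17 were higher and 6 lower (all genes 26.3% and 26.4%), counts near those shares. TFRC, the transferrin receptor, averaged 195 ± 2.81 CPM in RAS and 89.2 ± 5.07 CPM in control (edgeR log2 change 1.13 ± 0.06, adjusted p = 4.98e-18). In RAS/shDOT1L it averaged 64.9 ± 2.23 CPM and was lower than in RAS (edgeR log2 change -1.57 ± 0.07, adjusted p = 6.17e-20). HMOX1, heme oxygenase 1, which frees iron from heme, averaged 53.8 ± 5.28 CPM in RAS/shDOT1L, 52.97 ± 4.82 in RAS, 48.3 ± 1.66 in DOT1L OE and 7.87 ± 0.914 in control. FTH1, the ferritin heavy chain that stores iron, averaged 1084 ± 260.7 CPM in RAS and 425 ± 30.9 CPM in control (edgeR log2 change 1.35 ± 0.08, adjusted p = 8.82e-16). The RAS libraries differed widely in FTH1, and the edgeR test shares its estimate of spread over genes. That adjusted p therefore does not reflect the spread of FTH1 between its own libraries alone. MT2A, a metallothionein that binds zinc, averaged 2808 ± 134 CPM in RAS and 975 ± 58.6 CPM in control (edgeR log2 change 1.53 ± 0.04, adjusted p = 3.02e-27). Ferritin and metallothionein genes have close copies, so their counts are uncertain, and these partner genes were not refitted with the GC offset.

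The 6 nucleoside and nucleobase members were scarce, summing to 18.9 ± 1.12 CPM per kb in RAS/shDOT1L, 22.5 ± 0.775 in RAS, 11.8 ± 0.492 in DOT1L OE and 14.1 ± 0.736 in control. SLC29A1 (ENT1), the main equilibrative nucleoside uniporter, had 36.5, 39.9 and 39.9 CPM in RAS/shDOT1L and 39.7, 41.5 and 42.4 CPM in RAS. Values of 15.996, 16.9 and 18.5 CPM in DOT1L OE stood beside 25.5, 25.9 and 26.03 CPM in control. SLC29A1 rose in RAS (edgeR log2 change 0.67 ± 0.10, adjusted p = 5.94e-07) and fell in DOT1L OE (edgeR log2 change -0.59 ± 0.11, adjusted p = 2.21e-05), and RAS/shDOT1L overlapped RAS (edgeR log2 change -0.069 ± 0.10, adjusted p = 0.6). SLC43A3, which takes up purine nucleobases, had 3.65, 4.33 and 3.53 CPM in RAS/shDOT1L and 20.6, 18.2 and 24.8 CPM in RAS. DOT1L OE libraries held 13.5, 14.3 and 13.1 CPM, and control libraries 4.33, 3.83 and 4.27 CPM. It rose in RAS (edgeR log2 change 2.35 ± 0.18, adjusted p = 2.28e-13) and in DOT1L OE (edgeR log2 change 1.72 ± 0.17, adjusted p = 1.13e-10), and fell in RAS/shDOT1L against RAS (edgeR log2 change -2.44 ± 0.20, adjusted p = 1.65e-12) and was not called in RAS/shDOT1L against control, the groups overlapping there (edgeR log2 change -0.11 ± 0.29, adjusted p = 0.78). SLC28A3 (CNT3), the concentrative symporter of purines and pyrimidines, had 5.54, 5.96 and 7.44 CPM in RAS/shDOT1L and 0.596, 1.57 and 1.08 CPM in RAS. In DOT1L OE the values were 1.17, 1.73 and 2.29 CPM, against 0.619, 1.13 and 1.26 CPM in control. SLC28A3 rose in RAS/shDOT1L against RAS (edgeR log2 change 2.55 ± 0.39, adjusted p = 1.09e-06) and against control (edgeR log2 change 2.65 ± 0.36, adjusted p = 3.71e-07).

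SLC29A3 (ENT3), the nucleoside carrier of lysosomes, rose in DOT1L OE, with 5.76, 7.66 and 5.47 CPM in DOT1L OE, against 2.43, 1.19 and 2.56 CPM in control (edgeR log2 change 1.61 ± 0.27, adjusted p = 4.87e-06). SLC29A2 (ENT2), the relative of ENT1 that also carries nucleobases, fell there (edgeR log2 change -1.28 ± 0.41, adjusted p = 0.00841), and so did SLC29A4 (PMAT), which also carries monoamines (edgeR log2 change -0.90 ± 0.10, adjusted p = 4.05e-09). In RAS against control SLC29A4 was not called (edgeR log2 change 0.16 ± 0.10, adjusted p = 0.171), and the GC-offset fit gave -0.34 (adjusted p = 0.00475). Of the 6, 2 rose and 0 fell in RAS (33.3% and 0%, beside 31.9% and 32% of all genes). In RAS/shDOT1L against RAS 1 rose and 1 fell (16.7% each, beside 26.3% and 26.4%). In DOT1L OE 2 rose and 3 fell (33.3% and 50%, beside 29.9% each way).

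The mitochondrial members here are all of the SLC25 family, most of whose carriers bring ADP, phosphate, metabolites and iron across the inner membrane. Of 39 members, 14 rose and 9 fell in RAS (35.9% and 23.1%, beside 31.9% and 32% of all genes). These counts became 9 and 14 under library size alone, so the split of this family in RAS depended on the scaling. With it the family's median log2 change moved from 0.08 to -0.12, and that of all genes from -0.04 to -0.24. Of 38 tested in RAS/shDOT1L against RAS, 9 rose and 11 fell (23.7% and 28.9%, beside 26.3% and 26.4%). In DOT1L OE 10 rose and 12 fell (25.6% and 30.8%, beside 29.9% each way). The shares in the last 2 comparisons were close to those of all genes. Their summed level was 1164 ± 35.7 CPM per kb in RAS/shDOT1L, 1238 ± 10.03 in RAS, 802 ± 14.9 in DOT1L OE and 909.8 ± 6.78 in control. Per kilobase the sum rested on SLC25A6 (ANT3), which swaps ADP for ATP and held 50.6% of it in RAS/shDOT1L, 55.8% in RAS, 47.001% in DOT1L OE and 46.8% in control.

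SLC25A6 had 960.3, 906 and 877 CPM in RAS/shDOT1L and 1092, 1065 and 1061 CPM in RAS. The other groups had 572, 585 and 599.6 CPM (DOT1L OE) and 647, 670.04 and 668 CPM (control). SLC25A6 rose in RAS (edgeR log2 change 0.70 ± 0.03, adjusted p = 9.11e-19), and its fall in RAS/shDOT1L against RAS (edgeR log2 change -0.21 ± 0.04, adjusted p = 4.22e-05) turned to 0.14 in the GC-offset fit. SLC25A5 (ANT2), its near-identical relative, with which reads could be shared, had 174, 156 and 164 CPM in RAS/shDOT1L and 113, 134 and 123 CPM in RAS. Levels were 122, 127 and 125 CPM in DOT1L OE and 105, 104 and 107 CPM in control. SLC25A5 rose in RAS/shDOT1L against RAS (edgeR log2 change 0.43 ± 0.07, adjusted p = 1.58e-06). SLC25A3, the phosphate carrier, likewise had its highest values in RAS/shDOT1L, with 814, 799 and 808 CPM in RAS/shDOT1L, against 643, 655 and 614 CPM in RAS (edgeR log2 change 0.36 ± 0.04, adjusted p = 8.18e-09). In RAS against control SLC25A5 rose (edgeR log2 change 0.22 ± 0.06, adjusted p = 0.00253), but not under library size alone (0.027, adjusted p = 0.728). The rise of SLC25A3 there (edgeR log2 change 0.22 ± 0.04, adjusted p = 4.65e-06) was lost in the same way (0.025, adjusted p = 0.57).

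SLC25A15, the ornithine carrier of the urea cycle, had 7.56, 7.4004 and 8.71 CPM in RAS/shDOT1L and 10.8, 8.36 and 11.998 CPM in RAS. With DOT1L OE they were 32.6, 28.1 and 33.3 CPM, beside 2.01, 2.42 and 1.71 CPM in control. It rose 15.3-fold in DOT1L OE (edgeR log2 change 3.94 ± 0.16, adjusted p = 3.02e-20) and 5.06-fold in RAS (edgeR log2 change 2.34 ± 0.25, adjusted p = 1.17e-09), and RAS/shDOT1L overlapped RAS (edgeR log2 change -0.38 ± 0.21, adjusted p = 0.131). SLC25A37 (mitoferrin 1), which brings iron into mitochondria, had 41.5, 49.7 and 43.2 CPM in RAS/shDOT1L and 64.8, 72.2 and 72.5 CPM in RAS. Values of 14.9, 15.04 and 12.3 CPM in DOT1L OE stood beside 14.4, 16.9 and 17.7 CPM in control. SLC25A37 rose in RAS (edgeR log2 change 2.09 ± 0.10, adjusted p = 1.34e-18) and fell in RAS/shDOT1L against RAS (edgeR log2 change -0.62 ± 0.09, adjusted p = 6.83e-07). SLC25A23, a calcium-regulated carrier of ATP-magnesium and phosphate, was highest in control and fell in RAS (edgeR log2 change -0.98 ± 0.07, adjusted p = 1.75e-14) and in DOT1L OE, with 36.3, 36.6 and 33.8 CPM in DOT1L OE, against 112, 122 and 124 CPM in control (edgeR log2 change -1.74 ± 0.07, adjusted p = 2.44e-20). SLC25A1, the citrate carrier, fell in DOT1L OE (edgeR log2 change -0.80 ± 0.05, adjusted p = 1.28e-14). Its rise in RAS (edgeR log2 change 0.12 ± 0.04, adjusted p = 0.0192) became -0.077 under library size alone and -0.51 in the GC-offset fit, and it was lost without control replicate 1 (adjusted p = 0.076) or 3 (0.0951). SLC25A22, a glutamate carrier, rose in RAS (edgeR log2 change 1.07 ± 0.10, adjusted p = 1.21e-10, against 0.47 in the GC-offset fit) and fell in RAS/shDOT1L against RAS (edgeR log2 change -0.98 ± 0.11, adjusted p = 4.85e-09). SLC25A11, the oxoglutarate carrier, rose in RAS (edgeR log2 change 0.76 ± 0.06, adjusted p = 1.5e-12) and fell in RAS/shDOT1L against RAS (edgeR log2 change -0.56 ± 0.07, adjusted p = 1.81e-08).

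Other carriers and pores of mitochondria, which do not carry an SLC symbol, showed 8 higher and 3 lower of 16 in RAS, beside 31.9% and 32% of all genes. The counts were the same in RAS/shDOT1L against RAS, beside 26.3% and 26.4%, and 3 were higher and 12 lower in DOT1L OE, beside 29.9% each way. UCP2, an uncoupling protein that belongs to the SLC25 family by sequence but not by symbol, averaged 23.5 ± 3.71 CPM in RAS/shDOT1L, 17.4 ± 1.55 in RAS, 16.5 ± 1.43 in DOT1L OE and 99.1 ± 5.67 in control. UCP2 was thus lower in RAS than in control, against the direction of most calls on the list there. In DOT1L OE it was lower too, as most calls were.

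Of the 26 ion carriers, 14 rose and 5 fell in DOT1L OE (53.8% and 19.2%, beside 29.9% each way of all genes). In RAS 12 rose and 5 fell (46.2% and 19.2%, beside 31.9% and 32%), and in RAS/shDOT1L against RAS 6 rose and 12 fell (23.1% and 46.2%, beside 26.3% and 26.4%). Carriers of bicarbonate and chloride moved both ways in DOT1L OE. SLC4A3, an exchanger of chloride and bicarbonate, fell there, with 2.72, 1.31 and 2.34 CPM in DOT1L OE, against 4.54, 5.82 and 5.38 CPM in control (edgeR log2 change -1.31 ± 0.28, adjusted p = 0.00015). SLC12A8, counted with the ion carriers here but not taken as a carrier of chloride or bicarbonate, also fell in DOT1L OE (edgeR log2 change -1.08 ± 0.21, adjusted p = 3.37e-05). SLC4A4, the sodium-bicarbonate symporter NBCe1, had 17.3, 24.5 and 25.6 CPM in RAS/shDOT1L and 8.58, 8.96 and 9.38 CPM in RAS. DOT1L OE libraries held 74.97, 68.8 and 72.4 CPM, and control libraries 28.3, 26.2 and 28.5 CPM. It rose in DOT1L OE (edgeR log2 change 1.38 ± 0.08, adjusted p = 3.49e-16), fell in RAS (edgeR log2 change -1.63 ± 0.14, adjusted p = 3.91e-12) and rose in RAS/shDOT1L against RAS (edgeR log2 change 1.34 ± 0.17, adjusted p = 4.44e-08). SLC12A2 (NKCC1), which brings in sodium, potassium and chloride, rose in DOT1L OE (edgeR log2 change 1.33 ± 0.16, adjusted p = 1.04e-08) and in RAS/shDOT1L against RAS, with 12.5, 8.72 and 14.2 CPM in RAS/shDOT1L, against 4.47, 6.299 and 5.23 CPM in RAS (edgeR log2 change 1.16 ± 0.23, adjusted p = 5.94e-05). SLC26A2, the sulfate carrier that serves proteoglycan synthesis, had 20.8, 26.1 and 28.9 CPM in RAS/shDOT1L and 16.9, 15.7 and 15.95 CPM in RAS. In DOT1L OE the values were 29.6, 31.99 and 30.1 CPM, against 13.3, 11.05 and 12.1 CPM in control. It rose in DOT1L OE (edgeR log2 change 1.34 ± 0.11, adjusted p = 5.14e-12). SLC26A6, an anion exchanger, rose in each other group against control, with 31.1 ± 5.31 CPM in RAS/shDOT1L, 31.4 ± 3.17 in RAS and 30.4 ± 1.16 in DOT1L OE, against 9.86 ± 2.26 CPM in control. SLC8A1 (NCX1), the sodium-calcium exchanger, had 3.63, 4.36 and 4.21 CPM in RAS, against 19.6, 21.9 and 18.9 CPM in control (edgeR log2 change -2.31 ± 0.18, adjusted p = 2.76e-13), and was not called in DOT1L OE (edgeR log2 change 0.13 ± 0.11, adjusted p = 0.347), except in the GC-offset fit (0.28, adjusted p = 0.0325). SLC9A7, an exchanger of the Golgi, fell in DOT1L OE, with 7.62, 6.96 and 5.47 CPM in DOT1L OE, against 28.5, 22.6 and 25.3 CPM in control (edgeR log2 change -1.93 ± 0.14, adjusted p = 1.35e-13).

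Of 4 SLCO genes tested, organic anion transporters that lie outside the naming rule, 2 were higher and 0 lower in RAS. All genes stood at 31.9% and 32% there. In DOT1L OE 3 were higher and 0 lower (all genes 29.9% each way). In RAS/shDOT1L against RAS 0 were higher and 1 lower (all genes 26.3% and 26.4%). Values are given for SLCO4A1 and SLCO2A1 only. SLCO4A1 averaged 2.43 ± 0.842 CPM in RAS/shDOT1L, 25.3 ± 5.01 in RAS, 1.15 ± 0.136 in DOT1L OE and 0.795 ± 0.295 in control. SLCO4A1 rose in RAS (edgeR log2 change 4.98 ± 0.24, adjusted p = 1.2e-18) and fell in RAS/shDOT1L against RAS (edgeR log2 change -3.36 ± 0.22, adjusted p = 1.01e-14). SLCO2A1, the prostaglandin transporter, averaged 15.8 ± 0.329 CPM in DOT1L OE and 0.458 ± 0.468 CPM in control (edgeR log2 change 5.11 ± 0.30, adjusted p = 9.62e-16).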

How the data were processed

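RNA was sequenced from 12 libraries, 3 per group. Per the study's methods and labels, the authors made poly(A) libraries with a kit that fragments the RNA, aligned paired-end reads to GRCh38 with STAR and deposited a count of reads per Ensembl gene, whole numbers with no normalization. STAR 2.6.1 and DESeq2 2 are named in the processing notes of the submitters. The strand setting is not given in the sources used here, so reads from exons that overlap between genes cannot be told apart. The spans of 103 of the 195 members, introns included, overlap that of another gene with any count, on either strand. How many of them share exon sequence was not counted. Symbols were found for 45038 of 48162 IDs, and positions, exon lengths and GC content came from GENCODE release 44. The members and the lists of partner genes were chosen with earlier results of these data known.

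Counts were tested with the edgeR 4.0.16 quasi-likelihood test in R 4.3.3 (filterByExpr, TMM scaling, two-sided), each comparison on its own 6 libraries, with Benjamini-Hochberg adjustment over all genes tested, and with glmTreat for a change of over 1.5-fold. CPM were computed with TMM-scaled library sizes over the 12 libraries, and CPM per kb by the union of exons. Depth limits scarce members, since 1 CPM stands for 15.3 to 21.4 reads of a library. Between libraries of 1 group the counts differed beyond sampling noise, with a chi-square of 4.33 to 7.87 per degree of freedom.

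The rule for named members took a list of well-known transporters, the 8 largest rises and falls of each comparison (mean CPM of at least 5, no overlap), up to 3 called members with the smallest p per substrate family and comparison, the 3 most abundant per family, and members of any count of 5 or fewer. Not every member it took is described, and 1 is not reported here. Alternatives were scaling by DESeq2 size factors or by library size alone, no filter beyond 1 count, a filter at 1 CPM in 3 libraries, the DESeq2 1.42.0 Wald test, voom in limma 3.58.1, and 1 fit over the 4 groups. Others were a block for the replicate number, an offset for the trend of each library over 20 bins of GC content, that offset together with the block, and each library left out in turn. The edgeR test was tested on simulated data. Promoters are those of RefSeq for GRCh38.p14, and 155 of the 195 members had one.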

Additional observations from a re-analysis of the deposited data

How the results depend on the processing

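Of 355 changes, those of each named member in each comparison that tested it, 352 kept their direction and side of the threshold under DESeq2 size factors, 352 under limma-voom, 348 under the Wald test of DESeq2, 345 with no filter beyond 1 count, 341 in 1 fit over the 4 groups, 326 under library size alone, 302 with the GC offset and 299 with that offset and the replicate block. All 352 that a filter on CPM could give were kept under it. With single libraries left out, 104 of 2130 such values lost their call and 20 gained one. With the GC offset, 92 of the 129 calls of RAS against control stayed and 4 turned, 84 of 106 stayed in RAS/shDOT1L against RAS with 3 turned, and 123 of 132 stayed in DOT1L OE against control. The cause of the GC trend was not tested. A minimum of 10 counts gave 203 members and one of 100 counts 164.

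In RAS against control, amino acid members called higher came to 7 with GC offset and block. Glucose members called lower came to 4 under library size alone and with the GC offset with and without block. Nucleoside members called higher came to 1 with GC offset and block, and those called lower to 1 with the GC offset with and without block. Mitochondrial members came to 9 higher and 14 lower under library size alone. In RAS/shDOT1L against RAS, 1 fit over the 4 groups called 5 glucose members lower. In DOT1L OE against control, edgeR with the GC offset, with and without block, called 0 glucose members higher. At an unadjusted p under 0.05 it also called 0, while DESeq2 and limma-voom without that offset called 1 at the adjusted threshold. With single libraries left out, the 5 amino acid calls higher in RAS/shDOT1L against RAS ranged from 3 to 4 and the 1 glucose call higher in DOT1L OE from 0 (edgeR without control replicate 2, where 1 had an unadjusted p under 0.05) to 1.

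Directions turned in these cases, as log2 changes. In RAS against control, library size alone gave -0.077 for SLC25A1 and -0.12 for SLC38A10. The GC offset gave, without and with the block, -0.51 and -0.51 for SLC25A1, -0.34 and -0.33 for SLC29A4, -0.52 and -0.52 for SLC38A10, 0.27 and 0.27 for SLC39A10, -0.12 and -0.12 for SLC39A13, and -0.086 and -0.088 for SLC7A5. It gave 0.084 and 0.078 for SLC30A9, 0.011 and 0.013 for SLC38A6, and 0.049 and 0.050 for SLC38A9. In RAS/shDOT1L against RAS it gave 0.14 and 0.14 for SLC25A6, 0.15 and 0.15 for SLC39A13, and 0.32 and 0.32 for SLC7A5. In RAS/shDOT1L against control it gave -0.028 and -0.028 for SLC25A1.

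Same-numbered libraries of different groups did not deviate together (r between -0.019 and 0.027), so no pairing by number was seen in expression. Samples handled in matched sets without a shared deviation in expression would not be seen this way. With the replicate block, 128 members were called in RAS against control (127 shared with 129), 104 in RAS/shDOT1L against RAS (104 with 106), 127 in DOT1L OE against control (126 with 132) and 117 in RAS/shDOT1L against control (116 with 121).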
